A study of Homo sapiens with 6 samples.

Results

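The MYC network is described here through 10 genes, chosen by name: MYC, MAX, MXI1, MXD1, MXD3, MXD4, MNT, MGA, MLX and MLXIP. All 10 had values, out of 13494 genes measured, and all 10 were among the 12952 tested. NALM6, a human cell line grown from a B-cell precursor acute lymphoblastic leukemia, was cultured for 48 h in the presence of verteporfin, or of its solvent DMSO as the control, and the RNA of 3 libraries of each was sequenced. The benzoporphyrin verteporfin blocks, among other actions, the contact of the coactivator YAP with TEAD factors. It was used at 0.6 mmol/L as labelled, a unit that may not be the intended one, and all libraries share the medium, RPMI with 10% FBS. Whether replicates are separate cultures is not stated, and a p-value then covers the spread of these libraries only, which may be technical.

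MYC is a transcription factor that binds DNA as a pair with MAX. The MYC-MAX pair binds E-boxes and activates genes of ribosome production, metabolism and cell division, and B-cell precursor leukemias depend on it widely. MXD1, MXI1, MXD3, MXD4 and MNT pair with the same MAX at the same sites and recruit the SIN3-HDAC corepressor, so their pairs oppose those of MYC. MGA also pairs with MAX and is the scaffold of the repressive complex PRC1.6. MLX is a parallel partner. With MLXIP, also called MondoA, it forms an activator that responds to glucose phosphates, and it also pairs with MXD1, MXD4 and MNT.

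The sequence just before the annotated start is shown for MXI1, whose alternative starts are described below, and for the genes with an E-box there. Whether these E-boxes bear on the values was not tested. RefSeq promoter windows on build GRCh38.p14 were matched for 9 of the 10 genes, all but MYC, and hold 14 annotated starts. The 250 bases before each start were searched on both strands for the E-box CACGTG, which reads the same on both strands, and for the related motif CACGCG. The E-box was found before 3 of the 14 starts, those of MXD4, MNT and MLX, against 6.34% of all 35116 windows, and CACGCG before 1, a start of MGA, against 9.72%. A match describes the letters only. The 30 bases around each CACGTG, in capitals, are given 5′ to 3′ on the strand of the gene. They lie at chr4:2262330-2262359 on the minus strand for MXD4, chr17:2401236-2401265 on the minus strand for MNT and chr17:42567038-42567067 on the plus strand for MLX, with the first base of the motif at -238, -193 and -50 from the start in MXD4, MNT and MLX.
MXD4: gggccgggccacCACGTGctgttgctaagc
MNT: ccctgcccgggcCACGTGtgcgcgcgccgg
MLX: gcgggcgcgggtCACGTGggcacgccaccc

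MXI1 has 3 annotated RefSeq starts on chromosome 10. The FPKM listed for the transcripts of each start differed from library to library, as described with its values. The 250 bases before each are shown so that the starts can be told apart; none holds CACGTG or CACGCG, so no base is in capitals. All are on the plus strand, at chr10:110207355-110207604, chr10:110209981-110210230 and chr10:110225746-110225995 from the first start to the last. Their content of G and C was 55.6%, 76.4% and 66.8%.
MXI1 start 1: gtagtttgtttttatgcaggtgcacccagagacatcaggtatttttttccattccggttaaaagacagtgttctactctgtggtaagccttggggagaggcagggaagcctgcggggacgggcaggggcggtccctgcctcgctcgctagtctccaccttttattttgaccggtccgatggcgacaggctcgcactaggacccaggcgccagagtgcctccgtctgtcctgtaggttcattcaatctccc
MXI1 start 2: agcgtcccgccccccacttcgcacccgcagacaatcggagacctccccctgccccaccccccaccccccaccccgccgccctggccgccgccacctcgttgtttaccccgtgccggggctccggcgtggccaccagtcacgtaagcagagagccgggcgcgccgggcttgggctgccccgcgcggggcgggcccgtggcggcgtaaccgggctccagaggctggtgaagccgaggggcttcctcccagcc
MXI1 start 3: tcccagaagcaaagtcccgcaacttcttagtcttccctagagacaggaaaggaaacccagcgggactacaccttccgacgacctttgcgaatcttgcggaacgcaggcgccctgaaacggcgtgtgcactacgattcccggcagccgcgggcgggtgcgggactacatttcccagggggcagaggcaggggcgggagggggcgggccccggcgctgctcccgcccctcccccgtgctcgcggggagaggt

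Levels are FPKM, which divide the fragments of a transcript by its length and by the size of the library, added up over the transcripts of each gene, so that different genes can be compared per length. Values of a group are listed in the order of replicates 1, 2 and 3. Read depth is unknown. The share of transcripts listed at 0 was 11.3%, 5.23% and 7.91% with verteporfin and 14.0%, 14.5% and 18.7% with DMSO, and its part in the results was not tested. Of 11 genes marking B-cell precursors 10 were tested, with DNTT, PAX5, EBF1, CD79A and CD79B at 91.5 FPKM or more in verteporfin and 86.6 FPKM or more in DMSO. Of 10 markers of other cell types only LYZ was tested, at 1.33 to 2.05 FPKM in verteporfin and 2.01 to 2.56 FPKM in DMSO.

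MYC was lower and MXI1 higher in each verteporfin library than in any DMSO library, and the other 8 genes overlapped between the groups. None of the 10 passed the test over all genes, by limma with a Benjamini-Hochberg adjusted p under 0.05, which called 0.0154% of the genes tested, and the smallest adjusted p among the 10 was 0.404. At an unadjusted p under 0.05 limma gave 2 of the 10, MYC and MXI1, against 8.84% of the genes tested. The groups did not overlap for 2 of the 10, or 20.0%, against 14.2% of the genes tested, so that the count alone does not set these genes apart. The log2 fold changes below are verteporfin minus DMSO on the scale of log2(FPKM + 1).

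**Figure D1:**
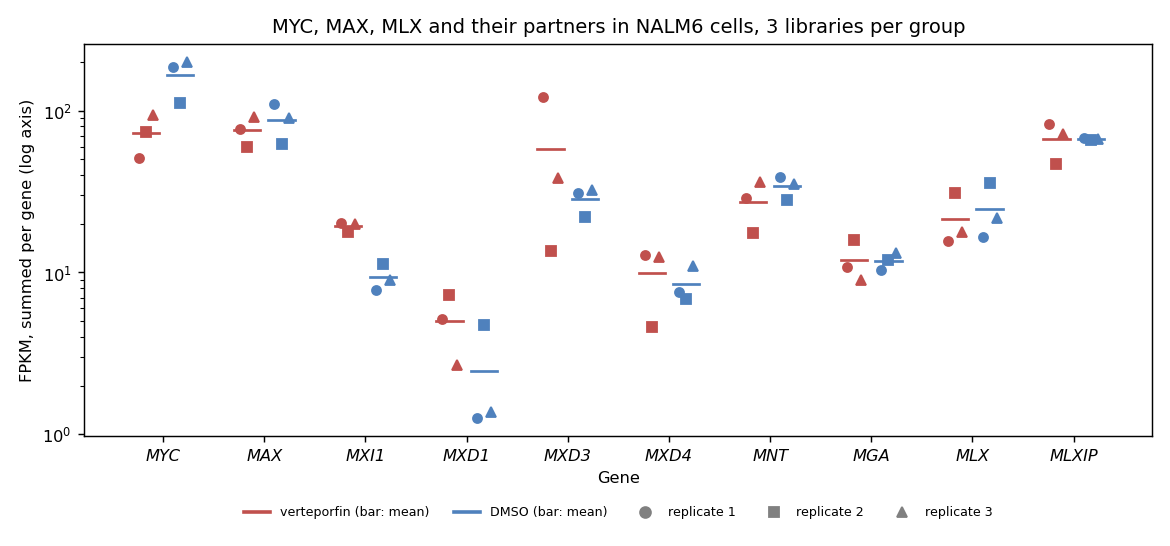
FPKM per gene on a log axis in the 3 verteporfin and the 3 DMSO libraries, with the replicate number as the symbol and the group mean as a bar. MYC is at 51.3 to 94.6 FPKM in verteporfin and 111 to 201 FPKM in DMSO, MXI1 at 17.7 to 20.1 FPKM in verteporfin and 7.83 to 11.3 FPKM in DMSO, and the points of the other 8 genes overlap.

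MYC (ENSG00000136997, chromosome 8) was at 51.3, 73.7 and 94.6 FPKM with verteporfin, against 187, 111 and 201 FPKM with DMSO. Every verteporfin library was below the lowest DMSO library, with a gap between 94.6 and 111 FPKM. The means were 73.2 ± 21.7 FPKM in verteporfin and 166 ± 48.3 FPKM in DMSO (SD, n = 3 each). The log2 fold change was -1.17 with a standard error of 0.33 and a 95% interval of -1.90 to -0.44 (adjusted p = 0.404 by limma). It lay between -1.43 without DMSO replicate 2 and -0.94 without verteporfin replicate 1.

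The difference in MYC lay mostly in 1 of its 8 transcripts. ENST00000613283 held 27.9%, 38.1% and 41.5% of MYC FPKM with verteporfin, against 67.9%, 45.9% and 75.9% with DMSO. The other 7 transcripts together were at 37.0, 45.6 and 55.4 FPKM in verteporfin and 60.0, 60.1 and 48.4 FPKM in DMSO, so that without that transcript the groups overlapped. Among these, ENST00000520751 was at 9.41, 6.69 and 11.1 FPKM with verteporfin, against 4.67, 5.95 and 4.38 FPKM with DMSO. It was higher in each verteporfin library than in any DMSO library, the reverse of the gene sum (log2 fold change 0.73, adjusted p = 0.775 by limma on single transcripts). ENST00000641036 was at 0.139, 0.0275 and 0.0662 FPKM with verteporfin, against 7.08, 0.165 and 19.8 FPKM with DMSO, so that DMSO replicate 2 stood apart from the other DMSO libraries. All 8 are annotated as protein coding. How reads are shared between transcripts that overlap this closely was decided by the authors' software, and its part in these splits was not tested.

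**Figure D2:**
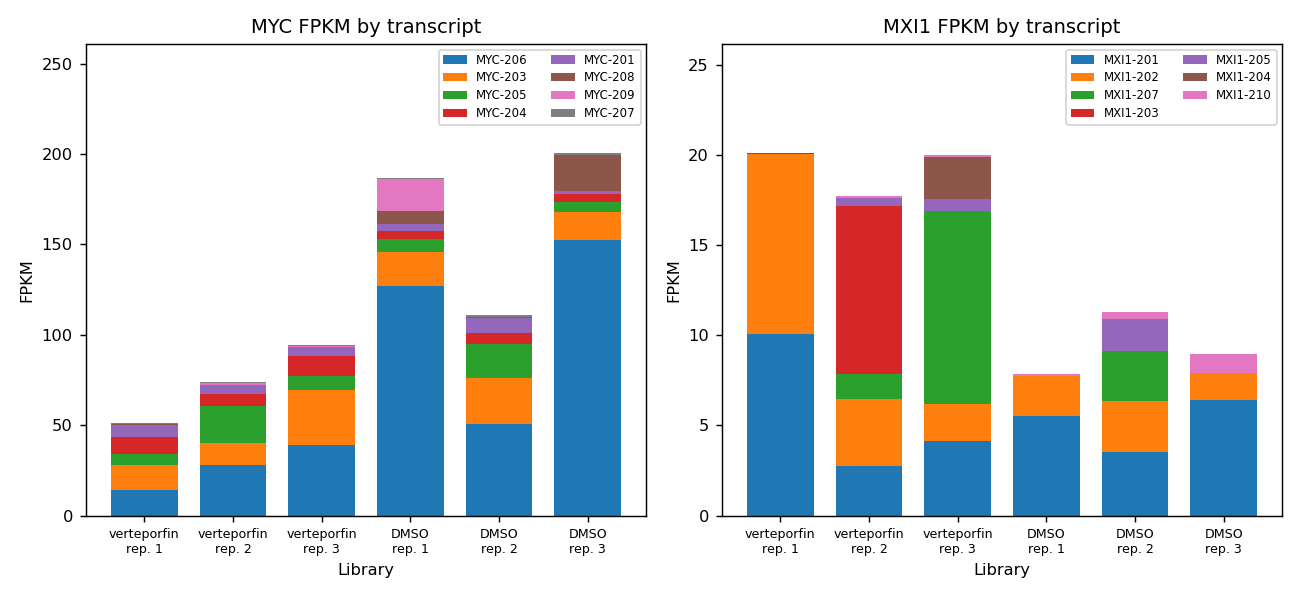
FPKM per transcript, stacked, in each library for MYC (left) and MXI1 (right), with verteporfin libraries left of DMSO libraries. The lowest MYC segment, MYC-206 (ENST00000613283), reaches 14.3 to 39.2 FPKM in verteporfin and 50.9 to 152 FPKM in DMSO; the MXI1 columns of the verteporfin libraries are alike in height and differ in which transcript fills them.

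MAX, the shared partner of MYC and the MXD and MNT repressors, was at 77.0, 59.7 and 91.2 FPKM with verteporfin, against 110, 62.0 and 90.4 FPKM with DMSO. The groups overlapped, with the lowest value in replicate 2 of both. The log2 fold change was -0.18 (95% interval -0.85 to 0.48), which leaves room for a difference of either sign, and with protein-coding transcripts only it was 0.10. The most abundant MAX transcript, the protein-coding ENST00000358664, was at 24.6, 40.3 and 42.6 FPKM in verteporfin and 27.8, 33.3 and 32.3 FPKM in DMSO. Its retained-intron transcript ENST00000554709 was at 11.8, 0.896 and 10.3 FPKM with verteporfin, against 42.4, 4.85 and 24.8 FPKM with DMSO. A protein-coding MAX transcript, ENST00000555667, was listed at 0 in all DMSO libraries and at 8.24, 1.26 and 8.16 FPKM with verteporfin. The listed transcripts reach a mean of 0.5 FPKM in 1 group or both, so this one is listed through verteporfin alone. How reads are shared between the MAX transcripts was decided by the authors' software, and its part was not tested. ENST00000555667 did not pass over the 55148 single transcripts (adjusted p = 0.445 by limma), of which 0.0308% passed. Its adjusted p was the smallest of the 70 tested transcripts of the 10 genes; 5 of these had an unadjusted p under 0.05 by limma, against 6.55% of all transcripts tested.

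MXI1 (ENSG00000119950), a repressor of the MXD family, was at 20.1, 17.7 and 20.0 FPKM with verteporfin, against 7.83, 11.3 and 8.98 FPKM with DMSO. Every verteporfin library was above the highest DMSO library. The means were 19.3 ± 1.36 FPKM in verteporfin and 9.37 ± 1.77 FPKM in DMSO (SD, n = 3 each), and the log2 fold change was 0.98 with a standard error of 0.29 and a 95% interval of 0.33 to 1.62 (adjusted p = 0.418 by limma). It stayed between 0.87 without DMSO replicate 1 and 1.11 without DMSO replicate 2. Of its 7 transcripts 6 are protein coding, and these alone gave 20.1, 17.6 and 19.9 FPKM in verteporfin and 7.77, 10.9 and 7.92 FPKM in DMSO. Among them, ENST00000361248 had means of 3.13 FPKM in verteporfin and 0.0137 FPKM in DMSO, so it is listed through verteporfin alone. It made up 9.32 of the 17.7 FPKM of verteporfin replicate 2, which without it would lie within the DMSO range. The separation of the groups in MXI1 thus depends on this transcript.

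The MXI1 sum was even across the verteporfin libraries while its transcripts were not. Transcripts were assigned to a RefSeq start when theirs, in GENCODE 29 on GRCh38, lay within 100 bases of it. The 2 transcripts from start 1 were at 9.98, 5.09 and 12.8 FPKM with verteporfin, against 2.21, 5.56 and 1.52 FPKM with DMSO. The transcript from start 2, ENST00000361248, was at 0.0669, 9.32 and 0 FPKM with verteporfin, and at no more than 0.0321 FPKM in DMSO. The 2 transcripts from start 3 were at 10.1, 3.22 and 4.80 FPKM with verteporfin, against 5.53, 5.34 and 6.41 FPKM with DMSO. The groups overlapped at each start, so no single start carried the difference in the gene in all libraries. Within start 1, ENST00000332674 made up all of the value in verteporfin replicate 1, while ENST00000453116, at 10.7 FPKM, made up most of it in verteporfin replicate 3. The remaining 2 transcripts begin within the gene, and in verteporfin they summed to 0.0202, 0.0840 and 2.42 FPKM in replicates 1, 2 and 3. Of these, ENST00000369612 is also listed through verteporfin alone, at 2.30 FPKM in verteporfin replicate 3 and 0 in all DMSO libraries. As for MYC, the authors' software decided how reads are shared between these transcripts, and its part in these splits was not tested.

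The other MXD genes had values of the same sign with wide intervals. MXD1, the founding member of the repressor family, was at 5.13, 7.22 and 2.69 FPKM with verteporfin, against 1.26, 4.74 and 1.37 FPKM with DMSO. It was the lowest of the 10 genes in 5 of the 6 libraries, and its replicate 2 was the highest of each group (log2 fold change 0.87, 95% interval -0.16 to 1.89). Its retained-intron transcript, ENST00000410000, was at 5.09, 2.56 and 1.10 FPKM in verteporfin and 0, 3.31 and 1.04 FPKM in DMSO, and made up nearly all of MXD1 in verteporfin replicate 1. With the protein-coding transcript alone the log2 fold change of MXD1 was 0.36.

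MXD3, a repressor that peaks in dividing cells, was at 121, 13.6 and 38.4 FPKM with verteporfin, against 31.1, 22.1 and 32.5 FPKM with DMSO. Verteporfin replicate 1 was above all other libraries and verteporfin replicate 2 below them. Of the 121 FPKM, 50.2 lay in ENST00000513063, which was at no more than 0.0663 FPKM in the other 5 libraries. The log2 fold change of MXD3, 0.50 (95% interval -0.86 to 1.86), turned to -0.28 without verteporfin replicate 1 and was 1.25 without verteporfin replicate 2. MXD4 was at 12.8, 4.62 and 12.4 FPKM with verteporfin, against 7.53, 6.90 and 10.9 FPKM with DMSO (log2 fold change 0.12, 95% interval -0.79 to 1.03), and its sign turned to -0.10 without verteporfin replicate 1.

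MNT, the broadly expressed repressor of the group, had a log2 fold change below 0, unlike the MXD genes. It was at 28.7, 17.4 and 36.2 FPKM with verteporfin, against 39.0, 27.9 and 35.2 FPKM with DMSO. The lowest value of each group was in replicate 2, and verteporfin replicates 1 and 3 lay within the DMSO range. The log2 fold change was -0.35 (95% interval -1.07 to 0.37). It was -0.06 without verteporfin replicate 2 and -0.175 with protein-coding transcripts only. MGA was at 10.8, 15.9 and 9.001 FPKM with verteporfin, against 10.3, 11.9 and 13.2 FPKM with DMSO, a log2 fold change of -0.02 (95% interval -0.73 to 0.69). Its transcript ENST00000219905 was lower in each verteporfin library, at 1.18, 0.582 and 1.13 FPKM with verteporfin, against 2.41, 1.47 and 3.19 FPKM with DMSO (adjusted p = 0.766 by limma on single transcripts).

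In the MLX branch neither gene separated the groups. MLX was at 15.6, 30.9 and 17.8 FPKM with verteporfin, against 16.6, 35.8 and 21.8 FPKM with DMSO, highest in replicate 2 of both groups. Its log2 fold change was -0.19 (95% interval -1.01 to 0.63) and 0.11 without DMSO replicate 2. MLXIP was at 83.2, 46.6 and 72.1 FPKM with verteporfin, against 68.1, 65.5 and 66.5 FPKM with DMSO. The DMSO libraries were close together while those of verteporfin lay on both sides of them, and the log2 fold change of -0.03 (95% interval -0.66 to 0.60) turned to 0.21 without verteporfin replicate 2.

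**Figure D3:**
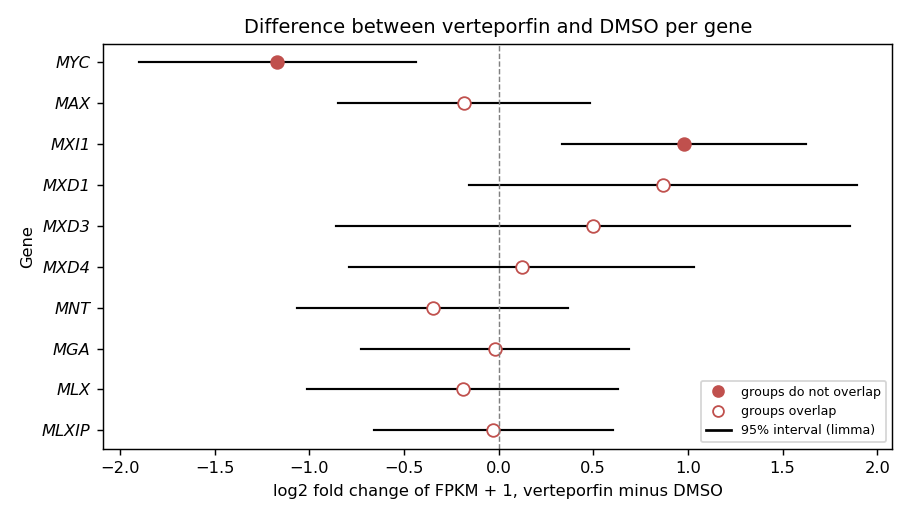
Log2 fold change of FPKM + 1, verteporfin minus DMSO, for each gene with its 95% interval from limma; filled points are genes whose groups do not overlap. The intervals of MYC (-1.90 to -0.44) and MXI1 (0.33 to 1.62) lie on either side of 0 and those of the other 8 genes include it; no gene passed after adjustment over all genes.

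In DMSO, MYC was the most abundant of the 10 in each library, with a mean of 166 FPKM, followed by MAX at 87.4 FPKM and MLXIP at 66.7 FPKM, whose ranges overlapped. In verteporfin MAX, MYC and MLXIP had means of 75.9, 73.2 and 67.3 FPKM, with overlapping ranges. MYC ranked 4 in verteporfin replicate 1, below MXD3, MLXIP and MAX, and 1 in verteporfin replicates 2 and 3. MNT, MXD3 and MLX formed a middle group in DMSO, at 34.1, 28.6 and 24.7 FPKM, and MGA, MXI1 and MXD4 a lower one, at 11.8, 9.37 and 8.46 FPKM. MXI1 ranked 5 or 6 in the verteporfin libraries and 8 or 9 in those of DMSO.

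Setting MYC against the repressors within each library gave a lower ratio in verteporfin. The FPKM of MXI1, MXD1, MXD3, MXD4 and MNT summed to 187, 60.6 and 110 with verteporfin, against 86.8, 73.0 and 89.0 with DMSO, and these sums overlapped between the groups. MYC over that sum was 0.274, 1.22 and 0.863 with verteporfin, against 2.15, 1.52 and 2.25 with DMSO. The log2 ratio averaged -0.60 ± 1.13 in verteporfin and 0.96 ± 0.31 in DMSO (SD, n = 3 each), a difference of -1.56, and of -0.93 without verteporfin replicate 1. Leaving MXD3 out of the sum gave log2 ratios of -0.38, 0.65 and 0.41 in verteporfin and 1.75, 1.13 and 1.83 in DMSO, which again did not overlap. The ratio follows from values already given, MYC above all, and was not tested.

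MYC over MXI1 showed the widest separation of the ratios computed, at 2.55, 4.16 and 4.73 with verteporfin, against 23.9, 9.81 and 22.3 with DMSO. Among the members, only MYC was lower and only MXI1 higher without overlap, so this ratio could not overlap and adds no evidence. Its value in verteporfin replicate 2 also depends on the MXI1 transcript ENST00000361248, listed through verteporfin alone. MYC over MAX was 0.666, 1.23 and 1.04 with verteporfin, against 1.70, 1.79 and 2.22 with DMSO, so that MYC was about level with its partner in verteporfin and above it in DMSO. MLXIP over MLX overlapped between the groups, at 5.33, 1.51 and 4.05 in verteporfin and 4.12, 1.83 and 3.05 in DMSO. In bulk RNA, fewer cells that express a gene and less of its RNA per cell cannot be told apart.

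**Figure D4:**
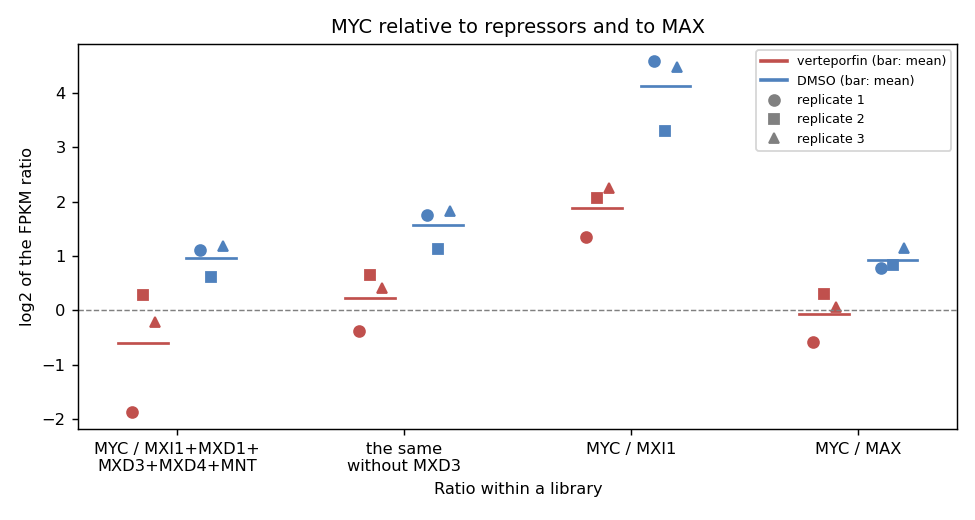
Log2 ratio of FPKM within each library for MYC over the sum of 5 repressors, the same without MXD3, MYC over MXI1 and MYC over MAX, with group means as bars. All 3 verteporfin points lie below all 3 DMSO points in each ratio, and verteporfin replicate 1, at -1.87 for the first, lies apart from the other verteporfin libraries.

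Genes whose profile over the 6 libraries lay nearest to that of MYC were sought among 8571 others with a mean of at least 5 FPKM, by root mean square distance of centred log2 values. The 5 nearest were SRM, spermidine synthase (distance 0.10), PRKAR1B, a regulatory subunit of protein kinase A (0.13), RRS1, a ribosome assembly factor (0.13), BORCS8, a subunit of a complex that moves lysosomes (0.14), and LRP8, a lipoprotein receptor (0.19), against a median of 0.77 over all. SRM was at 87.6, 110 and 135 FPKM with verteporfin, against 272, 160 and 336 FPKM with DMSO. Like MYC, it was lowest in verteporfin replicate 1 and highest in DMSO replicate 3. The 5 genes were chosen for such likeness, so the match is not independent evidence. Of the 8 other members compared, MNT (0.56) and MAX (0.57) lay nearest to MYC and MXD3 (1.35) farthest; MXD1, with a mean under 5 FPKM, was not compared.

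Known targets of MYC mostly had log2 fold changes below 0, though none passed. Of 39 genes listed 37 were tested, 34 of them below 0, with a median of -0.46, against 0.007 over all genes tested. None passed over all genes by limma, and 8 were lower at an unadjusted p under 0.05, as were 4.48% of the genes tested. In 12 the groups did not overlap, all lower in verteporfin, where 7.74% of the genes tested were lower without overlap. The lowest were RRS1, at 14.9, 19.2 and 29.9 FPKM in verteporfin and 62.5, 37.9 and 56.4 FPKM in DMSO (log2 fold change -1.28), and PKM, the last enzyme of glycolysis, at 574, 278 and 382 FPKM in verteporfin and 1080, 748 and 1065 FPKM in DMSO (-1.27). The import receptor gene IPO7 (0.09) and EIF4E, which encodes the cap-binding translation factor (0.08), had the highest values, and both turned below 0 without verteporfin replicate 2. This target list was chosen with earlier results of these data known, so its direction is not independent evidence.

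Of 19 genes known to be repressed by MYC 13 were tested, and all 13 had a log2 fold change above 0, with a median of 1.12; 7 had an unadjusted p under 0.05, against 4.36% of the genes tested that were higher at that level, and 6 were higher without overlap, against 6.49%. DDIT3, which encodes the stress factor CHOP and is also a target of ATF4, rose, the 1 gene of these lists to pass over all genes. It was at 31.8, 44.0 and 50.8 FPKM in verteporfin and 6.10, 7.27 and 6.92 FPKM in DMSO (log2 fold change 2.45, adjusted p = 0.0441 by limma). Leaving out single libraries gave it adjusted p values from 0.0229 to 0.268, and it passed without verteporfin replicate 1 (0.0229) or verteporfin replicate 2 (0.0347) and in none of the other 4 such fits. It also missed the threshold with other pseudocounts, equal medians, rescaling, no variance trend or protein-coding transcripts only (0.0539 to 0.0834). The gene of the p21 inhibitor of cell division, CDKN1A, was at 177, 224 and 485 FPKM in verteporfin and 60.4, 44.6 and 80.6 FPKM in DMSO (2.14, adjusted p = 0.148). The lowest of the list were the stress genes GADD45B (0.34) and GADD45A (0.40). Without verteporfin replicate 1 GADD45B turned to -0.014, and without verteporfin replicate 3 GADD45A was at 0.01. DDIT3, CDKN1A and other genes of this list were known to be higher in these libraries when it was written, so its direction is not independent evidence.

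Genes listed as targets of MLXIP and its relative MLXIPL lay on both sides of 0. Of 10 listed 9 were tested, 5 above 0 and 4 below, with a median of 0.05, and none passed. At an unadjusted p under 0.05 by limma 2 were lower and 1 higher, against 4.48% and 4.36% of the genes tested. Without overlap, 3 were lower and 2 higher, against 7.74% and 6.49% of the genes tested. TXNIP, the classic MLXIP target and a brake on glucose uptake, was at 41.4, 23.7 and 38.2 FPKM in verteporfin and 6.65, 10.8 and 6.25 FPKM in DMSO, which did not pass (log2 fold change 1.99, adjusted p = 0.109 by limma; 0.000835 with library weights and 0.0336 with a replicate block). ARRDC4, also in this list, overlapped between the groups, with a log2 fold change of 0.05 (unadjusted p = 0.896 by limma). It was named after its values were seen. KLF10, a transcription factor gene, had a log2 fold change of 0.75. FASN, fatty acid synthase and a target of MLXIPL in liver, was at 72.8, 45.4 and 87.7 FPKM in verteporfin and 255, 115 and 186 FPKM in DMSO (-1.40, adjusted p = 0.383). G6PC3, a glucose-6-phosphatase gene placed in this list, had a log2 fold change of -1.14. Whether G6PC3 is a target of either factor was not checked. TXNIP and KLF10 were higher, and FASN and G6PC3 lower, in each verteporfin library than in any DMSO library, while MLXIP and MLX overlapped.

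**Figure D5:**
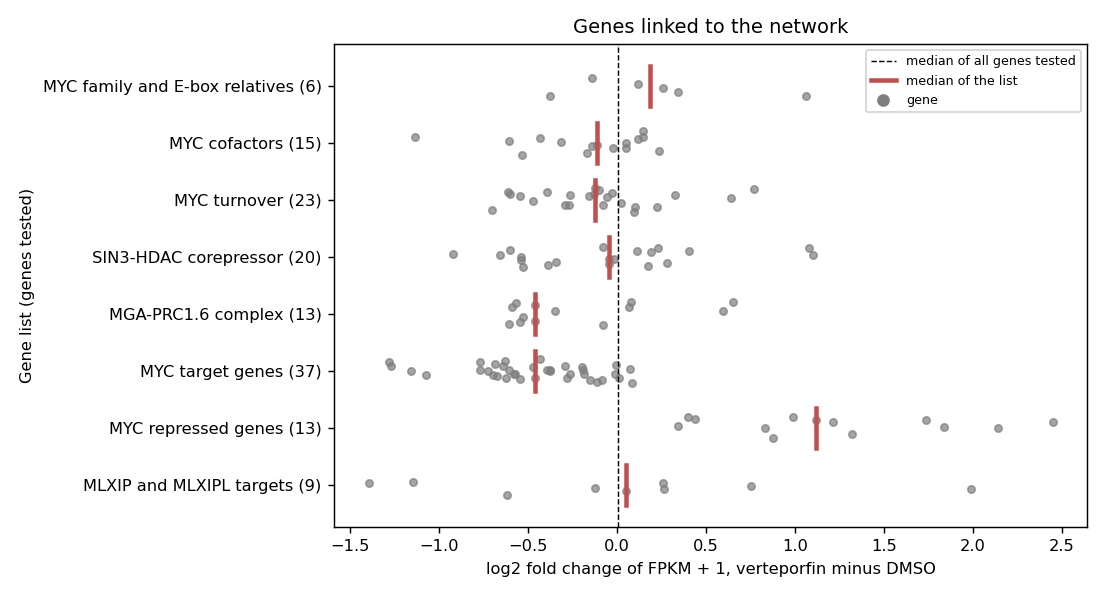
Log2 fold change of each tested gene (grey points) in 8 lists linked to the network, with the median of a list in red and that of all genes tested as a dashed line; the number of genes tested is beside each name. MYC targets lie mostly below 0 (median -0.46), all 13 genes repressed by MYC above 0 (median 1.12), and the other lists on both sides.

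Of 20 tested genes of the SIN3-HDAC corepressor 8 were above 0 and 12 below, with a median of -0.04, and none passed (3 at an unadjusted p under 0.05, against 8.84% of the genes tested). Without overlap between the groups, 4 were lower and 1 higher, against 7.74% and 6.49% of the genes tested. RBBP7, a histone-binding subunit, was at 59.5, 59.1 and 35.9 FPKM in verteporfin and 90.5, 87.5 and 111 FPKM in DMSO (log2 fold change -0.92, adjusted p = 0.424). ARID4B, a subunit of the SIN3 complex, was at 22.7, 14.4 and 27.2 FPKM in verteporfin and 12.1, 8.44 and 7.43 FPKM in DMSO (1.10, adjusted p = 0.422). BRMS1L, another subunit, had a log2 fold change of 1.08. Its groups overlapped, at 2.615 to 4.455 FPKM in verteporfin and 0.291 to 2.656 FPKM in DMSO. In the PRC1.6 complex around MGA 13 of 14 genes were tested, 4 above 0 and 9 below, with a median of -0.46, and none passed (1 at an unadjusted p under 0.05, against 8.84% of the genes tested). In 4 of the 13 every verteporfin library was below every DMSO library, against 7.74% of the genes tested, and in 0 above. These were WDR5 (-0.61), the heterochromatin protein gene CBX3 (-0.59), TFDP1 (-0.55), a partner of E2F factors, and L3MBTL2 (-0.46), the last 2 named after their values were seen. RYBP (0.65) and the ubiquitin ligase gene RNF2 (0.60) overlapped between the groups, and without verteporfin replicate 2 they were at 0.27 and 0.25.

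Among cofactors of MYC 15 of 15 were tested, 6 above 0 and 9 below, and none passed (2 at an unadjusted p under 0.05, against 8.84% of the genes tested). Without overlap, 4 were lower and 0 higher, against 7.74% and 6.49% of the genes tested. KAT2A, the histone acetyltransferase GCN5, was at 14.1, 13.7 and 14.3 FPKM in verteporfin and 34.8, 25.9 and 36.5 FPKM in DMSO, and did not pass (log2 fold change -1.14, adjusted p = 0.369 by limma). WDR5, which helps place MYC on chromatin and also belongs to PRC1.6, was at 26.7, 29.7 and 28.7 FPKM in verteporfin and 48.7, 35.01 and 48.6 FPKM in DMSO. The acetyltransferase gene KAT5 had the highest log2 fold change of the list, 0.24, with groups that overlapped.

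Of 23 genes of MYC turnover, all tested, 7 were above 0 and 16 below, and none passed (1 at an unadjusted p under 0.05, against 8.84% of the genes tested). Without overlap, 3 were lower and 2 higher, against 7.74% and 6.49% of the genes tested. PIM1, a kinase that stabilizes MYC, was at 1.76, 0.950 and 1.40 FPKM in verteporfin and 0.660, 0.200 and 0.301 FPKM in DMSO (log2 fold change 0.77), and USP28, a deubiquitinase of MYC, had a log2 fold change of 0.64; both were higher in each verteporfin library. The mitotic kinase gene PLK1 (-0.70) and UBE2S (-0.61), a ubiquitin-conjugating enzyme gene, were the lowest, and UBE2S was at -0.27 without verteporfin replicate 2. Of 10 relatives of the network that bind E-boxes or pair with MYC 6 were tested, and none passed (0 at an unadjusted p under 0.05, against 8.84% of the genes tested). Without overlap, 0 were lower and 1, USF1, was higher, against 7.74% and 6.49% of the genes tested. MYCN, MYCL and MLXIPL, the other family members, were not tested, since none of them had a gene sum in the values used here. TFE3 had a log2 fold change of 1.07 and USF1 of 0.34, while TFAP4 (-0.38) and USF2 (-0.14) were below 0. The log2 fold change of TFE3 was 1.81 without DMSO replicate 1 and 0.69 without DMSO replicate 3. That of TFAP4 was -0.19 without verteporfin replicate 1, and that of USF2 turned to 0.12 without verteporfin replicate 2.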

How the data were processed

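Per the file headers, the deposited values are FPKM of single Ensembl transcripts in the 3 verteporfin and 3 DMSO libraries, computed by the authors. Per the submitters' processing notes, StringTie 1.3.3, HISAT2 2.1.0, STAR, edgeR, cutadapt and FastQC were used, with build hg18; roles and order are not given there. The listed transcripts reach a mean of 0.5 FPKM in 1 group or both; 4765 lines of whole numbers under mostly repeated identifiers are not FPKM and were left out. Depth is unknown.

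Of 62250 transcripts 61975 were matched by identifier to GENCODE 29 and summed to 13494 genes. Genes averaging 0.5 FPKM or more, 12952 in number, were tested on log2(FPKM + 1) with limma 3.58.1 (variance trend, 2-sided, Benjamini-Hochberg over all genes, threshold 0.05) in R 4.3.3; single transcripts likewise. Treatment was the only term. The test was tried on simulated data. The remaining work used numpy 2.4.6, pandas 2.3.3 and matplotlib 3.10.9 under Python 3.11.15. Named were all 10 members, in each list the genes past the threshold and the 2 highest and 2 lowest, and the 5 genes nearest to MYC. Of the genes this rule names, 2 are not reported here. SRM, named by nearness, is also in the MYC target list. Members and lists were chosen with earlier results of these data known. Alternatives were other minima, pseudocounts, scalings, no trend, a replicate block, library weights, protein-coding transcripts only and leaving out each library.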

Additional observations from a re-analysis of the deposited data

Results flagged for a closer look

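A further set of lines in the deposited table, which holds whole numbers of unknown unit and is not part of the FPKM values, names 2 of the 10 genes. The MNT transcript ENST00000174618 has 9, 4 and 4 there with verteporfin, a sum of 17, against 0 in each DMSO library, and was singled out because every verteporfin library is above every DMSO library. MGA has 3 such lines, of which the largest, for ENST00000563576, has 0, 16 and 7 in verteporfin and 1, 3 and 0 in DMSO. The difference was not tested, since what these lines count is not given in the sources used here.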

How the results depend on the processing

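MYC kept its direction in all 17 alternatives, from -1.43 to -0.94 on the log2 scale, and so did MXI1 (0.87 to 1.11) and MNT; MXD1 did in 16, having no value at a minimum mean of 5 FPKM. Neither MYC nor MXI1 passed in 16 of the 17; with library weights both did, MYC at -1.02 (adjusted p = 0.0281) and MXI1 at 1.07 (adjusted p = 0.0156), the 2 members called there, against 0 elsewhere. That fit weighted verteporfin replicate 3 by 3.88 and the other verteporfin libraries by 0.416 (replicate 1) and 0.363 (replicate 2). Over those alternatives the adjusted p ran from 0.0281 to 0.9995 for MYC and from 0.0156 to 0.9995 for MXI1.

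Small differences turned sign: MAX to 0.10, MXD4 to -0.022 and MLXIP to 0.084 with protein-coding transcripts only; MLXIP to 0.11 with quantile normalization and 0.077 with library weights. Without single libraries MXD3 turned to -0.28 and MXD4 to -0.10 (verteporfin replicate 1), MXD4 to -0.08 (verteporfin replicate 3), MGA to 0.06, 0.03 and 0.15 (DMSO replicate 3, verteporfin replicates 1 and 3), MLX to 0.11 (DMSO replicate 2) and MLXIP to 0.21 (verteporfin replicate 2). Over single libraries left out, MXD3 ran from -0.28 to 1.25, MXD4 from -0.10 to 0.55, MGA from -0.23 to 0.15, MLX from -0.47 to 0.11 and MLXIP from -0.20 to 0.21. The cause was not tested.

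The count of genes called by limma, 2, became 0 with a pseudocount of 0.1 or 0.01, equal medians, rescaling without the 3 most abundant transcripts, no variance trend or protein-coding transcripts only (896 to 1190 genes at an unadjusted p under 0.05), and 1081 with library weights. Leaving out single libraries, it was 12 without verteporfin replicate 2, 11 without verteporfin replicate 1, 1 without DMSO replicate 3 and 0 otherwise. The replicate block gave 84 genes and no member (MYC adjusted p = 0.0709). Of the list genes named besides DDIT3, TXNIP, CDKN1A, PKM and FASN passed with the block (adjusted p = 0.0336, 0.0113, 0.0344 and 0.0270 by limma) and with library weights, which also called KAT2A, RBBP7, ARID4B, BRMS1L, RRS1, PLK1 and KLF10. Nothing in the labels pairs the replicate numbers, so the main fit did not pair them. Same-numbered libraries deviated together by correlations of 0.389, 0.509 and 0.0985 for numbers 1, 2 and 3. Between unlike numbers the correlations ran from -0.464 (verteporfin replicate 2 with DMSO replicate 1) to 0.138 (verteporfin replicate 3 with DMSO replicate 1). Whether the numbers pair the samples was not tested. The difference in the log2 ratio of MYC to repressors ran from -2.003 to -0.93 without single libraries; scalings of a whole library cannot change it. Unknown read depth limits the precision of genes at low FPKM, MXD1 above all.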
